A study of Mus musculus with 4 samples.

Results

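Gfi1b and Gfi1 are paralogous transcriptional repressors of the blood system, and their transcripts were followed here in the RNA-seq of sorted mouse HSCs. The members were chosen by name, as the rows of the count files whose Ensembl identifiers belong to these genes, which gives 2 genes of the 37140 that were listed in all 4 libraries. Both proteins bind DNA through C-terminal C2H2 zinc fingers, at sites built around an AATC core, and both carry an N-terminal SNAG domain that recruits the histone demethylase Kdm1a (LSD1) with CoREST and histone deacetylases. Gfi1b is best known from HSCs, megakaryocytes and erythroid cells, and Gfi1 from HSCs, lymphoid progenitors and neutrophil precursors. Each is known to repress its own gene and that of its paralog.

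Cells came from the marrow of tibiae, femora and humeri of C57Bl6 mice. They were sorted as HSCs by the gate Lin- cKit+ Sca1+ Cd48- CD150+, or as HSCs low for CD41 and CD9 (CD41low/CD9low HSCs), with 1 library labelled Gfi1b WT and 1 labelled Gfi1b KO in each population. In the methods the KO mice were Gfi1b fl/fl with Rosa-CreERT2, a Cre that is present in all tissues and is activated by tamoxifen, and the control mice were Gfi1b wt/fl with the same Cre and the same tamoxifen. The controls of that description therefore also carry Cre and 1 allele that can recombine, whereas the deposited design text speaks of floxed mice with and without Cre. Marrow of several mice was pooled before sorting, more of them controls than KO, and it is not stated whether both populations came from the same pool. The sample titles name Gfi1 and the genotype field names Gfi1b, and the genotype field was followed here. The total count on genes ranged from 12732079 to 50781007, and 3 counts, the floor used for a count of 0, equal 0.059 to 0.236 CPM (counts per 1000000 counts on genes). With 1 library for each genotype in a population there is no replicate check within a population. All intervals below are exact 95% intervals that cover counting error only, and no p-value is given for a single pair.

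The promoters of the genes are shown because Gfi1b and Gfi1 are known to act on them. Both genes had promoter windows in RefSeq (GRCm38.p6). The window from 250 bases before to 50 bases after the start of Gfi1b lies on the minus strand of chromosome 2, and the bases before the start (chr2:28621983-28622232) read, 5′ to 3′ on the strand of the gene and with AATC or its reverse complement GATT in capitals,
Gfi1b: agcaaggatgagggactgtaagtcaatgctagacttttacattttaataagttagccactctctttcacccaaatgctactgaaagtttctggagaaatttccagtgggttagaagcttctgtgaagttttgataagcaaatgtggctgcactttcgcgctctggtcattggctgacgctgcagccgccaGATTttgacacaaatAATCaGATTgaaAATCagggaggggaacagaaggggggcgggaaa
The window held 4 matches, which begin 60, 45, 40 and 33 bases before the start, so that all lie close together next to it. The matches at 60 and at 33 bases also read AAATC on 1 strand when the neighbouring base is included. Of 32851 RefSeq promoter windows of the same length, 73.1% held AATC on either strand and 10.1% held 4 or more matches, and 35.9% held AAATC. Gfi1 has 2 windows in RefSeq, both on the minus strand of chromosome 5. The upstream window (start site 107725805) held a single match, 200 bases before that start, and the downstream window (start site 107724343) held none. The match lies within chr5:107725989-107726018, in an annotated first exon of Gfi1:
Gfi1: ctcccgaaagcaaGATTcagtttgcacact
The longer form AATCNCNGC and the same form with a further A in front, searched on both strands, were in no window of either gene, and were in 3.79% and 0.98% of all windows. A match describes letters in the window and is not a binding site.

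Gfi1b (ENSMUSG00000026815) lies at chr2:28609450-28621982 on the minus strand, with a merged exon length of 1830 bases. Its count was 9256 in HSCs labelled WT, 49910 in HSCs labelled KO, 611 in CD41low/CD9low HSCs labelled WT and 9741 in CD41low/CD9low HSCs labelled KO. Per length its level was 99.6, 654.2, 26.22 and 278.4 RPKM (CPM divided by the exon length in kb) in the same order. The lowest level was thus in control CD41low/CD9low HSCs and the highest in HSCs labelled KO, and no pair of neighbours in this order overlapped in their counting intervals. By RPKM Gfi1b stood at place 318 of 15160 genes in HSCs labelled WT and at place 23 of 14873 in HSCs labelled KO. In CD41low/CD9low HSCs it moved from place 2014 of 13731 to place 106 of 14024. In HSCs labelled KO it took 0.12% of all counts on genes.

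The Gfi1b transcript is also the target of the deletion, and its count can be read only as the sum over the whole gene. The floxed exons 2 to 4 span chr2:28613677-28615397 and make up 531 bases, which is 29.1% and 31.6% of the protein-coding transcripts of 1822 and 1681 bases, both with 7 exons. The counts were summed over all exons, so they do not show whether exons 2 to 4 were lost in the libraries labelled KO, and they are not a check of those labels. The paper itself reports that expression of exons 2 to 4 was absent in megakaryocytes and HSCs after the deletion.

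Gfi1 (ENSMUSG00000029275), whose locus was not targeted, lies at chr5:107716657-107726036 on the minus strand, with a merged exon length of 3187 bases. Its count was 567 in HSCs labelled WT and 4394 in HSCs labelled KO, and 413 and 2643 in CD41low/CD9low HSCs labelled WT and KO. Per length this was 3.503, 33.07, 10.18 and 43.37 RPKM. Unlike Gfi1b, Gfi1 was lowest in control HSCs and highest in CD41low/CD9low HSCs labelled KO, and again the counting intervals of neighbours in the order were apart. Its place by RPKM went from 9330 to 1329 in HSCs and from 5470 to 970 in CD41low/CD9low HSCs, over the same genes as for Gfi1b. Its level was above that of 38.5% and 60.2% of the ranked genes in control HSCs and control CD41low/CD9low HSCs, and above that of 91.1% and 93.1% in the libraries labelled KO.

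**Figure D1:**
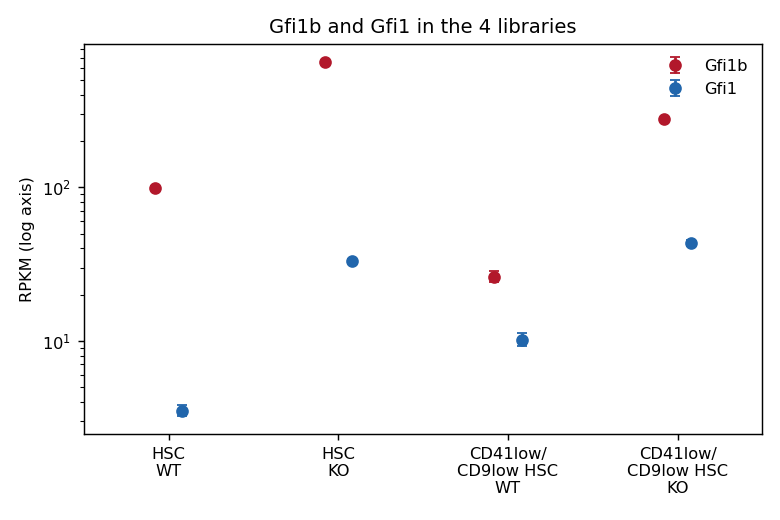
Level of Gfi1b (red) and Gfi1 (blue) in each of the 4 libraries, in RPKM on a log axis; bars are exact 95% counting intervals and are often smaller than the points. Gfi1b ranges from 26.22 to 654.2 RPKM and Gfi1 from 3.503 to 43.37 RPKM, and both are higher in the library labelled KO of each population.

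Whether Gfi1b loss goes with a change of its own and its paralog's transcript was read from the ratio of the libraries labelled KO and WT. Both genes were higher in the library labelled KO in both populations. In HSCs Gfi1b was 6.655-fold higher (6.509 to 6.805) and Gfi1 9.565-fold higher (8.762 to 10.46), after division by median-of-ratios size factors. In CD41low/CD9low HSCs Gfi1b was 10.63-fold higher (9.793 to 11.55) and Gfi1 4.266-fold higher (3.845 to 4.744). Among all genes with at least 10 counts in a library of the pair, 14.1% had a ratio above 1.5 and 10.3% a ratio below 0.6 in HSCs, while in CD41low/CD9low HSCs the shares were 13.5% and 12%. Among the 12339 genes with at least 100 counts in HSCs, Gfi1 had the place 35 and Gfi1b the place 49 from the top. Among 11030 such genes in CD41low/CD9low HSCs, Gfi1b had the place 9 and Gfi1 the place 30.

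Effects of genotype that the populations have in common were tested over the 4 libraries together, in a model with a population term (edgeR, quasi-likelihood). In this fit 1.62% of 16262 genes were called higher and 1.19% lower in the libraries labelled KO, at an adjusted p-value under 0.05. Gfi1b had the smallest p-value of all genes, with a log2 difference of 3.05 (SE 0.16, adjusted p = 1.08e-79), and Gfi1 the place 3, with 2.67 (SE 0.18, adjusted p = 2.39e-45, Benjamini-Hochberg over all genes tested). The direction was seen in 2 of 2 populations for both genes. Their log2 ratios in HSCs and CD41low/CD9low HSCs, 2.73 and 3.41 for Gfi1b and 3.26 and 2.09 for Gfi1, lay further apart than these SEs. The residual of the fit is this disagreement between populations and not a spread between replicates. The fit has 1 residual degree of freedom and an infinite prior, so these p-values rest on a spread pooled over all genes, and they ranged up to 3.26e-07 for Gfi1b and 1.74e-05 for Gfi1 in the alternatives that kept the covariate. Without it the adjusted p was 1 for both genes.

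The size of the rise differed between the populations, and in opposite order for the paralogs. The KO/WT ratio of Gfi1b in HSCs was 0.6262 times that in CD41low/CD9low HSCs (0.5744 to 0.6817), while that of Gfi1 was 2.242 times as large in HSCs (1.952 to 2.573). As a ratio, each gene thus gained more in the population where its control level, the denominator of that ratio, was lower. As a difference in RPKM the order was the reverse for both genes. Gfi1b went from 99.6 to 654.2 RPKM in HSCs and from 26.22 to 278.4 in CD41low/CD9low HSCs. Gfi1 went from 3.503 to 33.07 and from 10.18 to 43.37 RPKM. With a single library in each cell of the design this difference has no residual degree of freedom and was not tested beyond counting error.

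The balance of the paralogs is independent of library size, since both genes are read from the same library. It still depends on the gene set used for counting, which differed between the populations. The effect of that on the balance was not tested. Counted per kb of exon, Gfi1b exceeded Gfi1 28.43-fold in control HSCs (26.12 to 31.0) but 2.576-fold in control CD41low/CD9low HSCs (2.27 to 2.926). In the libraries labelled KO the factor was 19.78 in HSCs (19.18 to 20.41) and 6.419 in CD41low/CD9low HSCs (6.148 to 6.703). Expressed as the share of Gfi1 in the sum of the pair per length, it was 3.4% in control HSCs, 4.8% in HSCs labelled KO, 28.0% in control CD41low/CD9low HSCs and 13.5% in those labelled KO. Gfi1b was the more abundant transcript in each of the 4 libraries, and the gap between the control populations was wider than that between the libraries labelled KO. The ratio of Gfi1b to Gfi1 changed 0.6958-fold from WT to KO in HSCs (0.6346 to 0.7618) and 2.491-fold in CD41low/CD9low HSCs (2.177 to 2.848), which are opposite directions. Gfi1b was counted over all exons and divided by its full length in each library. Loss of the floxed exons, 29.1% or 31.6% of a protein-coding transcript, would lower the count per transcript in the libraries labelled KO. No correction was made for this, and its part in the change in HSCs was not tested. The summed level of both genes was 103.1 RPKM in control HSCs against 687.3 in those labelled KO, and 36.4 against 321.7 in CD41low/CD9low HSCs.

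**Figure D2:**
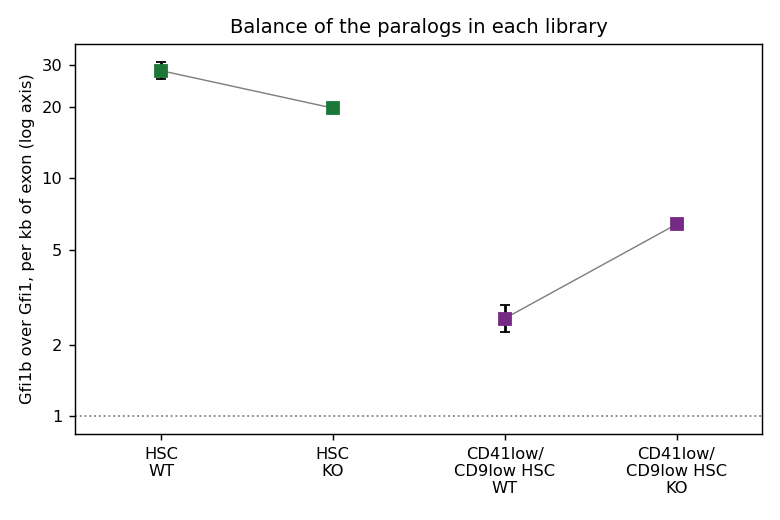
Gfi1b level divided by Gfi1 level in each library, per kb of exon on a log axis; squares are the 4 libraries (green HSC, purple CD41low/CD9low HSC), bars exact 95% counting intervals, grey lines join WT and KO of a population and the dotted line is equality. The factor goes from 28.43 to 19.78 in HSCs and from 2.576 to 6.419 in CD41low/CD9low HSCs, without a correction for the floxed exons of Gfi1b.

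The HSC populations differed from each other in both genes. Their libraries were also counted on unlike gene sets, with 38293 entries for HSCs against 41214 for the CD41low/CD9low gate. For each 100 counts on genes, reads on no feature numbered 80.0 and 105.3 in HSCs labelled WT and KO. The CD41low/CD9low libraries had 62.0 and 60.1 in the same order. Whether the counting enters the population differences below was not tested. In the controls Gfi1b was 3.973-fold higher in HSCs than in CD41low/CD9low HSCs (3.66 to 4.319), and Gfi1 was 2.777-fold higher in CD41low/CD9low HSCs (2.441 to 3.158). Between the libraries labelled KO these factors were 2.455 for Gfi1b (2.402 to 2.509) and 1.255 for Gfi1 (1.196 to 1.318), in the same directions. In the fit to all 4 libraries the population difference, CD41low/CD9low HSC minus HSC, was a log2 value of -1.63 for Gfi1b (SE 0.15, adjusted p = 1.65e-25) and 0.87 for Gfi1 (SE 0.17, adjusted p = 8.8e-06, edgeR's quasi-likelihood test with Benjamini-Hochberg adjustment). Here 9.11% of genes were called higher and 13.7% lower in CD41low/CD9low HSCs, so that calls were common. The split depended on scaling, with 39.9% of the calls higher under TMM and 50.4% under total-count scaling, and neither member changed its direction. In the alternatives that kept genotype as covariate the adjusted p ranged up to 1.18e-05 for Gfi1b and 0.00965 for Gfi1, and without it the adjusted p was 0.425 and 0.77. In these bulk samples, fewer cells with a transcript and less of it per cell cannot be told apart.

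Reads of one paralog could be counted for the other only where their sequences are shared. The longest stretch found in annotated transcripts of both genes (GENCODE M21) is 27 bases long and is shown for that reason:
shared by Gfi1b and Gfi1: catccacacaggtgagaagccccacaa
It crosses the junction of the last exons of both genes, exons 6 and 7 of Gfi1b and exons 5 and 6 of Gfi1, as numbered in their longest protein-coding transcripts. Of all stretches of 25 bases in the Gfi1b transcripts 0.164% were also in Gfi1, and no stretch of 50 bases was.

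Annotated overlaps and neighbours were compared to see whether the rise was limited to the genes themselves. No gene of GENCODE M21 overlaps Gfi1b. Gfi1 overlaps the noncoding gene A430072P03Rik on the opposite strand (chr5:107725157-107728801), whose count was 16, 158, 5 and 105 in HSCs labelled WT and KO and CD41low/CD9low HSCs labelled WT and KO. It was higher in the library labelled KO in both populations, with a log2 difference of 3.67 (SE 0.91, adjusted p = 0.0044), and it was called in 5 of the 6 fits with a covariate. The libraries were made with a stranded kit, but the strand setting of the counting is not given in the sources used here, so reads of Gfi1 and of this antisense gene may not have been told apart. The protein-coding gene next on the other side of it, Evi5, which lies 18.8 kb from Gfi1 and encodes a regulator of Rab GTPases, was 2.43-fold higher in HSCs (2.28 to 2.59) and 1.3-fold higher in CD41low/CD9low HSCs (1.17 to 1.46). Its log2 difference was 0.84 (SE 0.19, adjusted p = 0.000915), and it was called in 4 of 6 fits. The noncoding neighbour Gm26692, 28.6 kb to the other side, had 21, 147, 0 and 3 counts in the same order of libraries. Its ratio in HSCs was 8.64 (5.45 to 14.4), and it did not pass the test of a shared effect (adjusted p = 0.502).

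Around Gfi1b the neighbours on both sides did not pass the test. Tsc1, an inhibitor of mTORC1 signalling that lies 19.2 kb away, had a ratio of 1.07 in HSCs (1.03 to 1.11) and 0.971 in CD41low/CD9low HSCs (0.909 to 1.04). Gtf3c5, a subunit of the transcription factor TFIIIC that lies 25.7 kb to the other side, had ratios of 0.99 (0.929 to 1.05) and 0.7 (0.611 to 0.802). Ak8, an adenylate kinase gene 78.2 kb away, had a ratio of 7.41 in HSCs, but on 2 and 12 counts (1.65 to 68.1), and 0 and 2 counts in CD41low/CD9low HSCs (adjusted p = 0.981). Of the neighbours in the plot of genes in chromosome order, the ones called in the genotype test were Evi5 and A430072P03Rik, both at Gfi1.

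**Figure D3:**
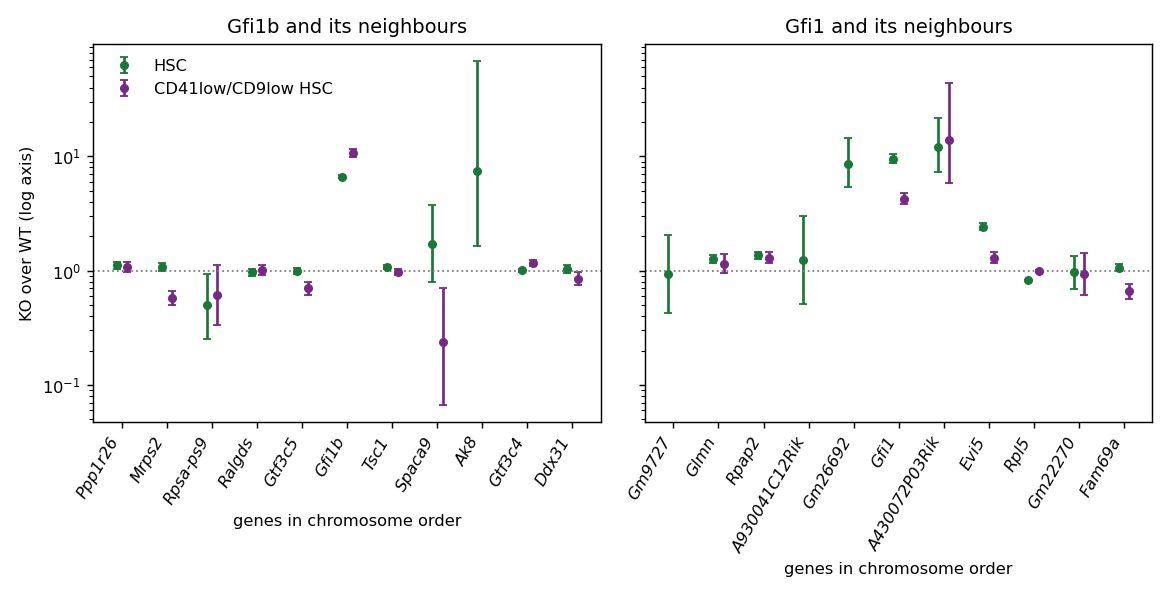
KO/WT ratio (log axis) of Gfi1b and Gfi1 and of up to 5 measured genes on each side in chromosome order, in HSCs (green) and CD41low/CD9low HSCs (purple); bars are exact 95% counting intervals, the dotted line is a ratio of 1, and a ratio without a value is not drawn. Gfi1b has ratios of 6.655 and 10.63, and Ak8 beside it has a wide interval on few counts. Beside Gfi1, A430072P03Rik is above 1 in both populations, Gm26692 is at 8.64 in HSCs and Evi5 is at 2.43 and 1.3.

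Genes with a pattern like that of the members were sought among 10459 other genes with at least 100 counts in a library of each population, by the distance between their log2 CPM over the 4 libraries after centring. This is a description over 4 libraries, and the genes named were chosen by these same values. Nearest to Gfi1b were Car5b, which encodes a mitochondrial carbonic anhydrase (distance 0.62), Dsp, which encodes the desmosomal protein desmoplakin (1.10), Lrrc66 (1.15), Timp3, an inhibitor of metalloproteinases (1.22), and Pclo (1.33). Car5b had KO/WT ratios of 5.73 in HSCs (5.12 to 6.43) and 6.07 in CD41low/CD9low HSCs (4.10 to 9.32). Nearest to Gfi1 were Cnr1, the cannabinoid receptor CB1 (0.80), Lgals1, the beta-galactoside binding lectin galectin-1 (0.86), Cttnbp2nl (0.94), Auts2 (1.06) and Lamb2, a laminin chain (1.10). Lgals1 had ratios of 5.05 (4.73 to 5.40) and 4.27 (3.84 to 4.76), close to 4.266 for Gfi1 in CD41low/CD9low HSCs. By this measure the paralogs were not close to each other, with a distance of 2.73, which puts Gfi1 at place 254 for Gfi1b and Gfi1b at place 2289 for Gfi1.

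**Figure D4:**
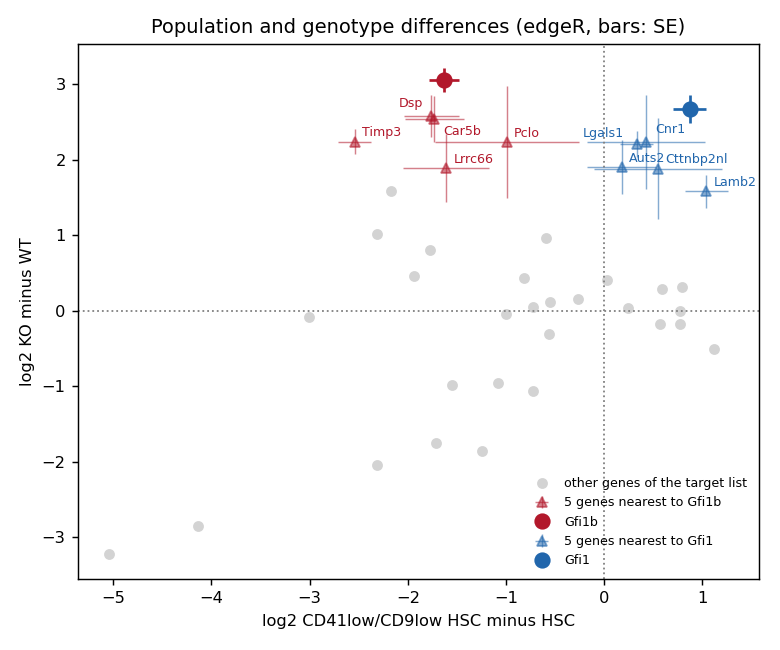
Difference between genotypes (vertical) against difference between populations (horizontal), both as log2 values of edgeR's fit to all 4 libraries with SE as bars, for Gfi1b, Gfi1, the 5 genes nearest to each and, in grey without bars, the other genes of the target list. Gfi1b at 3.05 and Gfi1 at 2.67 lie above the other genes drawn and on opposite sides of the vertical zero line.

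Of the 10 further genes of the SNAG-domain repressor list (Snai, Scrt, Insm and Ovol genes), 3 had enough counts to be tested, and 0 were called in the genotype test by edgeR's quasi-likelihood test or by DESeq2, with 0 at an unadjusted p under 0.05. Snai3 and Insm2 had no count in any library, Snai1 and Snai2 had at most 3, and the highest counts of the 3 tested genes were 25 for Insm1, 18 for Ovol2 and 12 for Ovol1. Gfi1b and Gfi1 were the SNAG-domain genes of the list with more than 25 counts in a library.

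The corepressors that Gfi1b and Gfi1 recruit were compared next. Of 18 genes tested, 2 were called by edgeR's quasi-likelihood test, both higher, where 1.62% of all genes tested were called higher and 1.19% lower, and the median log2 difference was 0.12 against 0.003 over all genes. Kdm1a, the demethylase bound by the SNAG domain, was at 159 and 146 CPM in HSCs labelled WT and KO and at 144 and 170 CPM in CD41low/CD9low HSCs, with KO/WT ratios of 0.93 (0.899 to 0.961) and 1.19 (1.12 to 1.26). Rcor1, the CoREST subunit that links it to histone deacetylases, had ratios of 1.15 and 1.02. The called genes were Ajuba, a LIM protein described as a corepressor of Gfi1, with ratios of 1.26 (1.13 to 1.42) and 6.04 (4.16 to 9.06) and a log2 difference of 1.35 (adjusted p = 0.0083), and Gse1, which is associated with the Kdm1a complex, with 1.47 and 1.41 and a log2 difference of 0.52 (adjusted p = 0.0263). Each was called in 3 of 6 fits.

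Among genes known or proposed as targets of Gfi1b or Gfi1, the members had the highest log2 differences. Besides them 28 genes of the list were tested, of which 3 were called higher and 1 lower, against 1.62% and 1.19% of all genes tested. The median log2 difference of the 28 was -0.02. Itgb3, the integrin beta3 chain of the platelet fibrinogen receptor, was at 202 and 663 CPM in HSCs and 51.4 and 141 CPM in CD41low/CD9low HSCs labelled WT and KO, with ratios of 3.32 (3.25 to 3.40) and 2.74 (2.51 to 2.99). Gata2, a transcription factor of HSCs that also binds the Gfi1b locus, had ratios of 1.98 and 1.95. Both genes were called in all 6 fits with a covariate, with log2 differences of 1.59 and 0.96 (adjusted p = 8.7e-22 and 1.81e-08, edgeR's quasi-likelihood test). Elane, the neutrophil elastase gene, was called lower in 3 of 6 fits but had opposite directions in the populations, with 1.24 in HSCs and 0.194 in CD41low/CD9low HSCs. Meis1 and Hoxa9, stem cell factors of the same list, had ratios of 1.15 and 1.10 and of 1.40 and 1.08 and were not called. Cdkn1a, which encodes the cell cycle inhibitor p21, was at 201, 98, 33 and 6 counts and was not called (adjusted p = 0.472).

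The factors that bind the Gfi1b promoter and enhancers were also compared. Of 16 tested, 2 were called, namely Gata2 and Ets1, both higher, where 1.62% of all genes tested were called higher. Ets1 had a ratio of 2.43 in HSCs (2.32 to 2.55) and of 1.04 in the other population (0.945 to 1.14), with a log2 difference of 0.68 (adjusted p = 0.00565), and was called in 3 of 6 fits. Gata1, which drives Gfi1b in erythroid cells, was at 63.0 and 48.6 CPM in HSCs labelled WT and KO, and at 7.85 and 21.3 CPM in CD41low/CD9low HSCs. Its KO/WT ratios were 0.783 (0.74 to 0.828) and 2.72 (2.18 to 3.42), in opposite directions. Gata1 did not pass the test of a shared effect (adjusted p = 0.416), and its part in the Gfi1b values was not tested. Runx1, Fli1, Tal1 and Myb were not called.

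**Figure D5:**
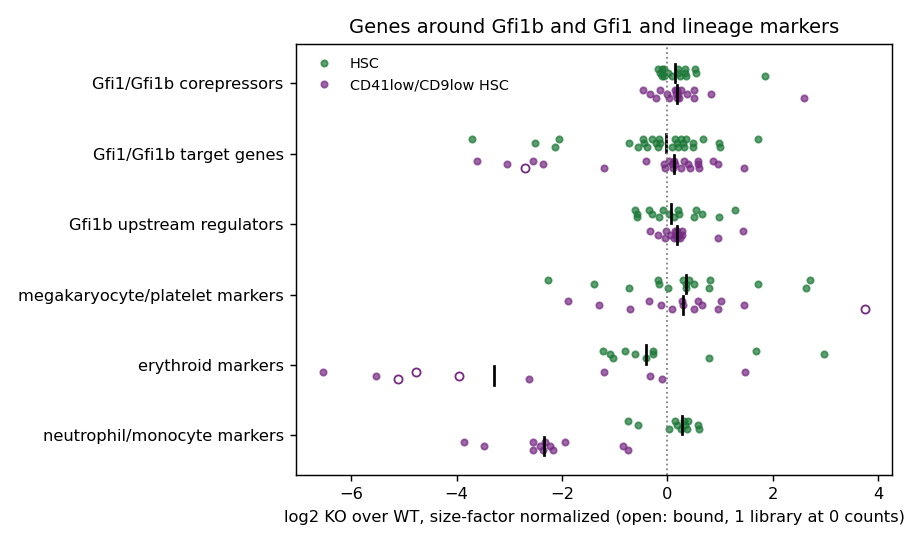
log2 KO/WT ratio of the genes of 6 lists without Gfi1b and Gfi1, in HSCs (green) and CD41low/CD9low HSCs (purple); each point is a gene, black bars are medians, and open points are bounds for genes with 0 counts in a library. The medians of corepressors and upstream regulators are 0.15 and 0.07 in HSCs, and 0.19 and 0.18 in CD41low/CD9low HSCs. Single genes of these lists lie further from 0, such as Ajuba at 2.6 in CD41low/CD9low HSCs and Ets1 at 1.28 in HSCs. Neutrophil and monocyte markers have medians of 0.29 in HSCs and -2.35 in CD41low/CD9low HSCs.

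Markers of the gate and of other cell types give the setting of these values. Kit was at 989 to 1260 CPM in all libraries. Itga2b, which encodes CD41, fell by 1.94 on the log2 scale from HSCs to CD41low/CD9low HSCs (adjusted p = 2.42e-35), and Cd9 fell by 0.68 (adjusted p = 1.4e-04), in the direction of the gate. Gate genes that the populations should share differed too. In the same edgeR test the log2 difference was -1.16 for Slamf1 (adjusted p = 5.59e-10) and -2.09 for Cd48 (adjusted p = 0.00252). For Ly6a, the Sca1 gene, it was 1.28 (adjusted p = 6.33e-08). Of the megakaryocyte and platelet markers 14 of 16 were called lower in CD41low/CD9low HSCs, as was Gfi1b, against 13.7% of all genes tested. The list includes the gate genes Itga2b and Cd9. Its summed level was 1980 and 2730 CPM in HSCs and 729 and 866 CPM in CD41low/CD9low HSCs labelled WT and KO. Between genotypes Itgb3, Gp1bb, Treml1 and Clec1b were called higher, 4 of the 16, and Selp and Tubb1 lower. Over all genes tested, 1.62% were called higher and 1.19% lower between genotypes. Gp1bb, a chain of the von Willebrand factor receptor, had 0 counts in control CD41low/CD9low HSCs and 61 in those labelled KO, at least 13.5-fold higher when 0 is set to 3 counts. Of the 12 HSC markers, Procr (log2 difference 0.86) and Slamf1 (0.66), which encodes CD150, were called higher and Hlf (-0.50) lower. The part of megakaryocyte transcripts in the Gfi1b differences was not tested.

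Neutrophil and monocyte markers, which matter for Gfi1 as a gene of neutrophil precursors, had values in the other direction than Gfi1 in CD41low/CD9low HSCs. The lineage antibodies of the study included Gr1 and CD11b, and how completely such cells were removed was not tested. Itgam, which encodes CD11b, had 780 and 379 counts in HSCs and 431 and 387 in CD41low/CD9low HSCs labelled WT and KO. In CD41low/CD9low HSCs all 12 of the 12 measured markers had a ratio below 0.6, against 12% of all genes measured. Their summed level was 1180 CPM in the library labelled WT and 304 CPM in that labelled KO, where Gfi1 was 4.266-fold higher. In HSCs 1 of 12 was below 0.6 and 2 were above 1.5, against 10.3% and 14.1% of all genes measured, with summed levels of 479 and 566 CPM. The list had a median log2 ratio of 0.29 in HSCs, against 0.0 over all genes, and of -2.35 in CD41low/CD9low HSCs, against 0.01. The shared test called 10 of the 12 lower, against 1.19% of all genes tested. None of the 10 was called in all 6 fits, and the test averages changes of unequal direction. Ly6g, a defining marker of neutrophils, had at most 9 counts in any library. Other genes of the list were high, with S100a8 at 176 and S100a9 at 363 CPM in CD41low/CD9low HSCs labelled WT. Of 10 measured erythroid markers 7 were likewise below a ratio of 0.6 in CD41low/CD9low HSCs, with summed levels of 905 and 772 CPM. In HSCs their summed levels were 1120 and 591 CPM, with 4 of 11 below 0.6 and 3 above 1.5, namely Hba-a1 (3.21), Alas2 (7.87) and Slc4a1 (1.74). In CD41low/CD9low HSCs Hba-a1 and Slc4a1 had ratios of 0.0216 and 0.0108, on 5 and 4 counts in the library labelled KO. The shared test called 4 of the 11 lower, none of them in all 6 fits. In CD41low/CD9low HSCs Car1 and Ermap had 55 and 69 counts in the library labelled WT and 0 in that labelled KO. In HSCs labelled WT and KO Car1 had 1005 and 347 counts and Ermap 488 and 186. Of the lymphoid list 0 of 7 tested genes were called by edgeR's quasi-likelihood test or DESeq2, with 0 at an unadjusted p under 0.05, and Cd3e, Cd3d, Cd8a and Ms4a1 had at most 5 counts, while Ighm was at 7579 and 6164 counts in HSCs. Of the mast cell, basophil and eosinophil list 0 of 7 were called by the same tests, with 1 at an unadjusted p under 0.05. The part of these cell types in the Gfi1 values was not tested.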

How the data were processed

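RNA was extracted from sorted cells with a MagMax-96 kit, and libraries were made with the TruSeq Stranded mRNA kit and sequenced in paired ends. Per the labels and the methods, the authors mapped the reads on mm10 (GRCm38) with TopHat2 2.0.10 and SAMtools, obtained read counts per Ensembl gene from HTSeq and deposited these raw counts. For HTSeq, its version, strand setting and annotation release were not given in the sources used here. The populations were counted on different gene sets, and fits across them used 37140 shared genes. For each 100 counts on genes, 60.1 to 105.3 reads fell on no feature, and these lines were left out of library sizes.

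KO/WT ratios used median-of-ratios size factors of each pair, as in DESeq, and genes that reached 10 counts in a library of the pair. Intervals are exact at 95%. They are Clopper-Pearson intervals for levels and ratios, and conditional intervals of the odds ratio where a ratio was divided by another. A count of 0 was set to 3 counts for a bound. The genotype and population effects were tested with edgeR 4.0.16 (TMM, quasi-likelihood test) in R 4.3.3, with Benjamini-Hochberg adjustment and SEs taken from the F statistic. DESeq2 1.42.0, RLE and total-count scaling, other count filters and a fit without covariate were alternatives. The test was checked on simulated data. RPKM and promoters used GENCODE M21 and RefSeq of GRCm38. The members, gene lists and tests were chosen with earlier results of these data known. Named genes were the members, the 5 protein-coding genes nearest to each, up to 5 neighbours on each side, the list genes called in the genotype test, otherwise those with the highest mean CPM, and the gate genes. Other list genes named were chosen after their values were seen. The values of 1 gene of the target list are not reported here. P-values and SEs measure only the spread that a fit leaves between these libraries, in the main fit pooled over all genes, and no spread between replicates. The libraries are not known to come from separate pools of mice.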

Additional observations from a re-analysis of the deposited data

Results flagged for a closer look

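The Gfi1b to Gfi1 ratio moved in opposite directions in the populations from the library labelled WT to that labelled KO, 0.6958-fold in HSCs and 2.491-fold in CD41low/CD9low HSCs. The difference was not tested, since each value comes from 1 library a genotype. The values are also not corrected for the floxed exons of Gfi1b, whose loss would lower its count per transcript in the libraries labelled KO. Marker genes named because they were called or had the highest mean CPM were checked in the same way. The KO/WT ratios of 4 of them lay on opposite sides of 1 in the populations, by at least 1.5-fold each way. These differences were not tested either. Mpo, which encodes myeloperoxidase, had a ratio of 1.5 in HSCs and 0.17 in CD41low/CD9low HSCs. Ly6c2, a monocyte surface marker, had ratios of 1.53 and 0.0685. Mcpt8, a basophil protease gene, had a ratio of 1.85 in HSCs, and in CD41low/CD9low HSCs it had 68 counts in the library labelled WT and 0 in that labelled KO, which bounds the ratio at 0.0295 when 0 is set to 3 counts. Epx, which encodes eosinophil peroxidase, went the other way, with 0.56 in HSCs and 1.89 in CD41low/CD9low HSCs. Among the marker genes named for their values, Hba-a1 had ratios of 3.21 in HSCs and 0.0216 in CD41low/CD9low HSCs. Those of Slc4a1 were 1.74 and 0.0108.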

How the results depend on the processing

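Of 62 recomputed values, 51 kept their direction and their side of the threshold, stayed within the counting interval where there is no test, or stayed within 1.5 times where they count genes. Gfi1b KO/WT in HSCs was 6.468 when the 100 highest genes were left out of the total count, just outside the counting interval, and its other 5 alternatives gave 6.568 to 6.655. The alternatives for Gfi1 KO/WT gave 9.295 to 9.548 in HSCs. In CD41low/CD9low HSCs they gave 4.228 to 4.285 for Gfi1, and 10.53 to 10.68 for Gfi1b. The genotype effect over all genes, 457 calls of 16262, gave 240 calls with RLE, 128 with at least 50 counts and 100 with DESeq2. Without a covariate it gave 0 (180 at an unadjusted p under 0.05). The population effect, 3716 calls, gave 2372 with DESeq2 and 1302 without a covariate. In the fits without a covariate the members kept their direction but not their calls. The log2 genotype differences were 2.885 for Gfi1b and 2.507 for Gfi1, and the population differences were -1.368 and 0.4934. The term left out then enters the residual spread, which is the population difference in the genotype fit and the genotype difference in the population fit. Of 440 genes called in the genotype test with a ratio in both populations, 35 had opposite directions, and of the 88 called also with at least 50 counts and by DESeq2, 87 had the same direction. No paired analysis was possible because the labels give no replicate numbers, beyond the population term that already sets KO against WT within each population in the fit. With 1 library a group, no replicate could be left out. Depth limits the CD41low/CD9low HSCs labelled WT most, where Gfi1b and Gfi1 rest on 611 and 413 counts.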
